A study of Mus musculus with 4 samples.

Results

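The 10 genes described here, Actb, Actg1, Tmsb4x, Tmsb10, Pfn1, Cfl1, Coro1a, Was, Arpc2 and Arpc1b, encode actin itself and proteins that store, charge, cut, coat and branch actin filaments. They were chosen by name, since Tmsb4x and Actb carry some of the most significant N6-methyladenosine (m6A) peaks of the series, and their peaks are the distinct entries of the peak list assigned to the mouse Ensembl identifiers of these symbols. All 10 genes had a peak, against 46.3% of all annotated protein-coding genes, a background that includes genes without reads. Together the 10 genes held 29 of 20727 distinct peaks, in a list that named 12351 genes. Because significance of the peaks entered the choice, the fold enrichments and p-values below are a description and none was tested. They were set beside all peaks of the list.

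The cells were natural killer (NK) cells from the spleen of C57BL/6 mice, and the assay was MeRIP-seq (methylated RNA immunoprecipitation), in which RNA fragments bound by an m6A antibody are sequenced beside fragments taken without antibody. There were 4 libraries, 2 m6A immunoprecipitates and 2 inputs, and no group differed in genotype, treatment or tissue. Per the study's methods, every sample came from mice carrying an IL-15 expression plasmid, pLIVE-IL-15, which expands NK cells in the body, so these are expanded and not resting NK cells. The methods give an age of 6 to 10 weeks for the mice of the study in general. Whether the replicates came from separate animals is not given in the sources used here. The list gave 1 fold enrichment and 1 p-value per peak for all libraries together, so no value had a replicate error, and the depth of each library is unknown. All 8 NK cell markers had a peak, the lowest log10 p among them being -624. So did 3 of 6 T cell markers (Cd3e, Cd3d and Cd3g; lowest log10 p -46.8), 2 of 4 B cell markers (Cd79a and Cd79b; -27.6) and 6 of 6 myeloid markers (-322). A peak needs reads of the gene but does not measure its level, and actin genes are used by all of these cells. Per the study's methods, the NK cells had been sorted by flow cytometry. Of the myeloid markers, Itgam (CD11b) is also carried by mature NK cells, and the others were Lyz2, Csf1r, Adgre1, S100a8 and S100a9. What the other cell types contributed to the peaks of the 10 genes was not tested.

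Actin is a small globular protein that assembles into filaments, and the filaments are continually built at one end and taken apart at the other. Thymosins hold free monomers in reserve and profilin recharges them for growth, while cofilin severs old filaments. The Wiskott-Aldrich syndrome protein switches on the Arp2/3 complex, which branches new filaments from existing ones. In NK cells this network forms the contact with a target cell, the immune synapse, where it supports adhesion and shapes the path of lytic granules. The m6A mark is written mainly within a short motif called DRACH (where D stands for any base but C, R for a purine and H for any base but G), with the methylated A in the middle, and is known to be frequent around stop codons and in 3′ UTRs.

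DRACH was searched on the mRNA strand only. For each gene, 1 DRACH site is shown in capitals with 10 nt on either side, as the RNA would read 5′ to 3′ with T for U. It is the site closest to the middle of the gene's most significant peak, with sites that begin with GGAC preferred. These are sequence matches within peaks, not mapped methylation sites, because a peak covers many more bases than a single A.
Actb, chr5:142903521-142903545, minus strand, 3′ UTR: atgtggctgaGGACTttgtacattg
Actg1, chr11:120345910-120345934, minus strand, 3′ UTR: ccgagccttaGGACCcagtttcagt
Tmsb4x, chrX:167207524-167207949, minus strand, coding, joined over an intron of 401 nt: ccttcaaaagAAACAattgaacaag
Tmsb10, chr6:72957438-72957462, minus strand, 3′ UTR: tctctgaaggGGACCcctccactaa
Pfn1, chr11:70654423-70654447, minus strand, coding: atggcggacgGGACCtgtcaggacg
Cfl1, chr19:5493726-5493750, plus strand, 3′ UTR: gggttgacgcAGACCaagtcccgtc
Coro1a, chr7:126700294-126700318, minus strand, coding: acaggggcctGGACAgcgctcgcag
Arpc2, chr1:74267956-74267980, plus strand, 3′ UTR: gtgcttgcaaGGACTtgatagttcc
Arpc1b, chr5:145127831-145127855, plus strand, coding: cagccttgaaGGACCtgaaaatcaa
Coordinates are those of GRCm38, the build of the files, and sequences were read from the GRCm38 reference. The most significant peak of Was held no DRACH site, so none is shown for that gene. The peaks of Tmsb4x and Cfl1 shown here held DRACH but no site that begins with GGAC.

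The 10 genes stood out by significance, which entered their choice, and not by fold enrichment. The log10 p of their peaks ranged from -6130 to -1.69, with a median of -53.8 against -4.1 for all peaks. A log10 p of -100 or less was reached by 13 of the 29 peaks (44.8%), in all genes but Was, where 2.55% of all peaks reached it. A log10 p of -3 or less was found for 26 peaks (89.7%), against 61.6% of all peaks.

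Fold enrichment, the ratio of immunoprecipitate to input signal, lay between 1.15 and 20.7 for these peaks, with a median of 1.97 against 2.66 for all peaks, whose range was 1.04 to 738. A fold of at least 2 was found in 14 peaks (48.3%), against 63.9% of all peaks. A fold of at least 5, called strong here after the cut that the study used to choose genes, was found in 4 peaks (13.8%), against 34.6% of all peaks. These lay in Actb, Pfn1, Coro1a and Arpc1b. Counted by gene, 4 of 10 had a strong peak, against 49.6% of all genes with a peak. When strong peaks also had to reach a log10 p of -3 or less, a condition chosen after seeing the data, 2 of the 10 genes had one, since the strong peaks of Actb and Coro1a did not reach it. The share of all genes with such a peak was not computed. Among peaks with a log10 p of -100 or less, the median fold was 2.19 for these genes and 2.76 for all 529 such peaks. Of those 529 peaks, 187 (35.3%) were strong, and 1 of the 13 was. A p-value of this kind depends on the number of reads as well as on the ratio, and the list gave no read numbers, so a very low p with a fold near 2 does not say how large a share of the mRNA was methylated.

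**Figure D1:**
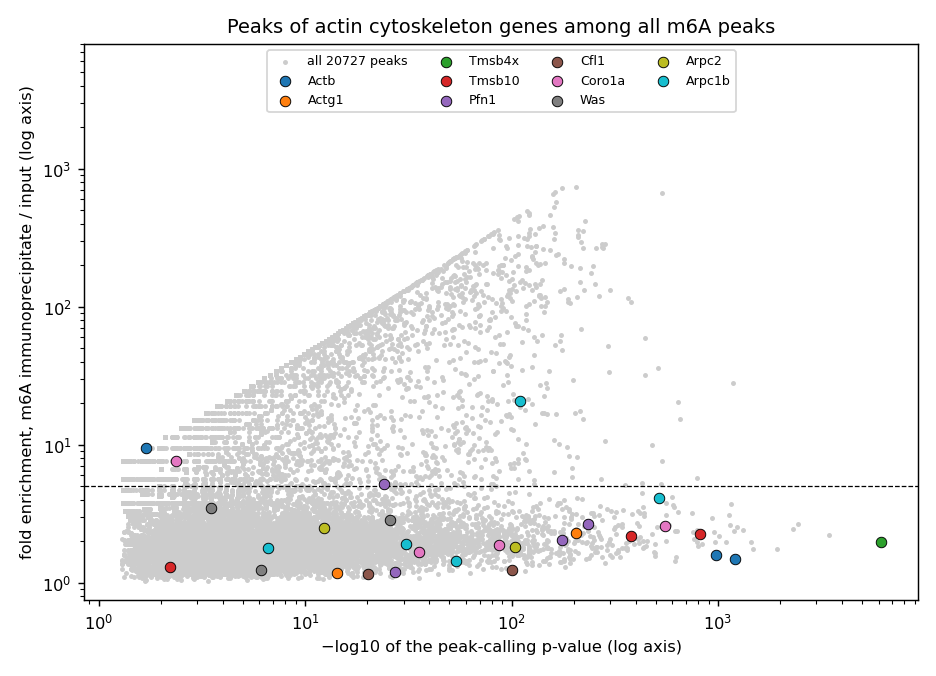
Fold enrichment (log axis) against the negative log10 of the peak-calling p-value (log axis) for all 20727 peaks (grey) and for the 29 peaks of the 10 genes (coloured by gene), with the dashed line at a fold of 5. Most coloured points lie low on the fold axis while spreading to the right, Tmsb4x lies farthest right at a fold of 1.97, and 4 coloured points lie above the dashed line.

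Actb and Actg1 encode the cytoplasmic beta and gamma actins, nearly the same protein from different genes. In both, the most significant peak lay in the last exon and ran through the 3′ UTR to the end of the mRNA. In Actb (ENSMUSG00000029580, on the minus strand of chr5) it spanned chr5:142903115-142903829 with a fold of 1.5 and a log10 p of -1210, the tenth lowest of the list. It began 31 nt before the stop codon and took in the whole 3′ UTR of 683 nt. It held 13 DRACH sites. A shorter Actb peak, chr5:142903234-142903654, lay wholly inside it and had a fold of 1.59 and a log10 p of -973, so the 2 entries share their reads and are not separate evidence. The peak just ahead of it in the order of log10 p was assigned to Gm11175 (-1240), and its span also covered 954 nt of Jund exons. That peak had a higher fold enrichment, 2.54, than the Actb peak.

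The third Actb peak lay on the first exon, chr5:142905891-142906754, with a fold of 9.48 and a log10 p of -1.69. It covered 103 exonic nt, all 5′ UTR. It was thus both the highest fold of Actb and the least significant of the 29 peaks. The same pair of values was attached to 845 peaks of the list. In Actg1 (ENSMUSG00000062825, on the minus strand of chr11) the 3′ UTR peak, chr11:120345690-120346347, had a fold of 2.30 and a log10 p of -206. It began 43 nt past the stop codon, covered 658 nt and held 13 DRACH sites. The other Actg1 peak, chr11:120347169-120347258, had a fold of 1.18 and a log10 p of -14.3. The authors' label placed it in a 3′ UTR, but on the longest coding transcript it lay in exon 4, within the coding sequence and 629 nt before the stop codon. A further peak on an exon of Actg1, chr11:120346736-120346819, was assigned by the authors to the small gene Gm23419 (fold 3.58, log10 p -14.2) and is not counted here.

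The actin mRNAs were much alike in coding sequence and little alike in the 3′ UTR, where their most significant peaks lay. The coding sequences of Actb and Actg1 matched at 1000 of 1128 positions (88.7%), and their 3′ UTRs at 256 of 589 aligned positions (43.5%). Of all stretches of 50 nt in the Actg1 coding sequence, 100% also occurred in transcripts of other genes, so the origin of reads in the exon 4 peak is uncertain. In the Actg1 3′ UTR peak the share was 0%, and in the larger Actb peak 8.11%. With copies taken at 90% identity over 50% of the transcript, Actg1 had 9 copies, all pseudogenes, and Actb had 1. None of these copies carried a peak.

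Tmsb4x and Tmsb10 encode the beta-thymosins, very small proteins that bind actin monomers and keep them from assembling. The only peak of Tmsb4x (ENSMUSG00000049775, on the minus strand of chrX) was the most significant of the whole list, with a log10 p of -6130 and a fold of 1.97. The next peak in the order, assigned to Patl2 but lying over 505 nt of B2m exons and no exon of Patl2, came at -3440 with a fold of 2.22. By fold enrichment the Tmsb4x peak ranked 13412 of 20727. It spanned chrX:167207093-167208480 and covered 517 nt of an mRNA of 864 nt (59.8%). In it lay the whole coding sequence of 153 nt, the whole 3′ UTR of 209 nt and the last 155 nt of the 5′ UTR. The authors' label was 5′ UTR, while the middle of its exonic part lay in the coding sequence 49 nt before the stop codon. Of the 15 DRACH sites of the mRNA, 12 lay in the peak, that is 23.2 per kb against 8.65 per kb in the rest.

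Tmsb10 (ENSMUSG00000079523, on the minus strand of chr6) was covered by 3 peaks over 543 of its 690 nt (78.7%). The first, chr6:72957347-72957823, had a fold of 2.26 and a log10 p of -817, crossed the stop codon and took in the whole 3′ UTR of 265 nt. It stood between peaks of Rplp1 (-835, fold 1.92), a ribosomal protein gene, and Ftl1 (-801, fold 1.86), the ferritin light chain. The second, chr6:72957912-72958120, had a fold of 2.19 and a log10 p of -380 and joined 108 nt of 5′ UTR to 100 nt of coding sequence. The third, chr6:72958268-72958391, touched 35 nt at the start of the mRNA with a fold of 1.30 and a log10 p of -2.22. The first peaks of the thymosins had fold enrichments of 1.97 and 2.26 and log10 p values that differed more, and both covered the stop codon. Their coding sequences matched at 95 of 135 aligned positions (70.4%). Tmsb4x shared no stretch of 50 nt with other genes. In the first Tmsb10 peak 77.7% of such stretches also occurred elsewhere, and the mRNA had 1 near-identical copy, Gm9844 (99.0% identity), which carried no peak, so the split of reads between Tmsb10 and that copy is uncertain.

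**Figure D2:**
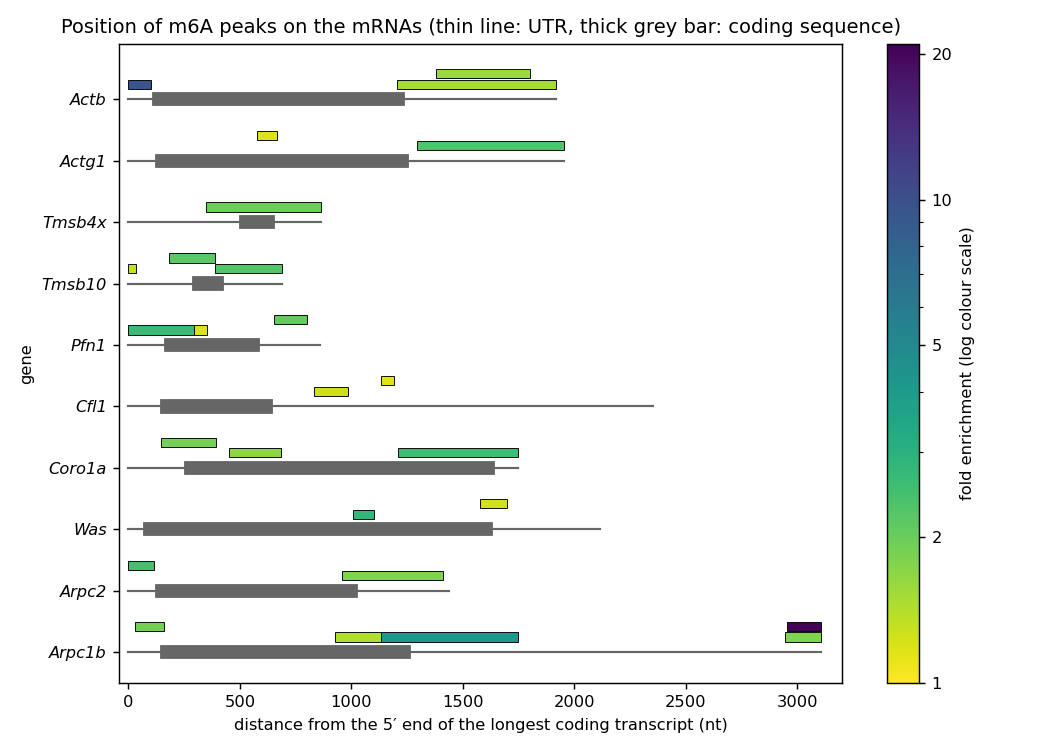
Position of the 26 peaks that could be placed on the longest coding transcript of each gene, as distance in nt from the 5′ end, with the coding sequence as a thick grey bar, the UTRs as thin lines and peaks coloured by fold enrichment (log colour scale). The peaks of Actb, Actg1, Tmsb4x, Tmsb10 and Coro1a reach the end of the mRNA, Cfl1 has 2 short peaks in a long 3′ UTR, and the darkest bar is the Arpc1b peak at the mRNA end (fold 20.7).

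Pfn1 (ENSMUSG00000018293, on the minus strand of chr11) encodes profilin, which binds actin monomers, exchanges their nucleotide and delivers them to growing ends. Its most significant peak lay at the start of the mRNA and not at the stop codon. This peak, chr11:70654228-70654644, had a fold of 2.67 and a log10 p of -234 and covered the whole 5′ UTR of 164 nt and 132 nt of coding sequence. Among the 10 genes, Pfn1 was the only one whose most significant peak had its centre in the 5′ UTR. The Pfn1 peak in the 3′ UTR, chr11:70651909-70652058, had a fold of 2.06 and a log10 p of -175 and began 66 nt past the stop codon. The third, on 57 nt of exon 2 (chr11:70652923-70653101), had a fold of 1.19 and a log10 p of -27.4.

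The strongest Pfn1 peak by fold (5.23, log10 p -24.2) lay outside the mRNA, in intron 1. It is shown because the only annotated transcript that contains it is a retained-intron form with no coding sequence. Its 149 bases, chr11:70653576-70653724 on the minus strand, hold 2 DRACH sites, in capitals, and none of its stretches of 25 nt occurred in a transcript of another gene.
Pfn1, intron 1 peak: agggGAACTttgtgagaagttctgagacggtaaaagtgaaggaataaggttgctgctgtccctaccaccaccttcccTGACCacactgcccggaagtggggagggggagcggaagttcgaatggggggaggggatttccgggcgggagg

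Cfl1 and Coro1a encode proteins of filament turnover. Cofilin severs and depolymerizes filaments, and coronin 1A, found mainly in blood cells, binds filaments and the Arp2/3 complex. Cfl1 (ENSMUSG00000056201, on the plus strand of chr19) had no peak with a fold above 1.24, the lowest such maximum among the 10 genes. Its second peak had the lowest fold of the group. The first, chr19:5493682-5493831, had a fold of 1.24 and a log10 p of -100, and the second, chr19:5493980-5494039, a fold of 1.15 and a log10 p of -20.1. By fold they ranked 20074 and 20552 of 20727. Both lay in the 3′ UTR, with centres 263 and 516 nt past the stop codon, and together covered 8.92% of the mRNA, the smallest share among the 10 genes. The second held 5 DRACH sites in its 60 nt.

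Coro1a (ENSMUSG00000030707, on the minus strand of chr7) had 3 placed peaks over 58.5% of the mRNA. None of them lay between positions 685 and 1209 of the mRNA. The most significant, chr7:126699773-126700791, ran over exons 8 to 11 to the mRNA end with a fold of 2.57 and a log10 p of -554. It joined 431 nt of coding sequence to the whole 3′ UTR of 108 nt, and 26 nt of its span also belonged to exons of Bola2 on the other strand. The other placed peaks, nearer the start, had lower fold enrichments. The one over exons 1 and 2 (chr7:126703032-126704074) had a fold of 1.88 and a log10 p of -86.9, and the one over exons 3 and 4 (chr7:126701809-126702314) a fold of 1.68 and a log10 p of -35.5. The fourth, chr7:126704521-126707787, had the highest fold of the gene, 7.59, at a log10 p of -2.37. It touched exons of 5 other isoforms, 4 of them coding, and none of the longest coding transcript. Its pair of values occurred in 57 peaks of the list.

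Was (ENSMUSG00000031165, on the minus strand of chrX) encodes the Wiskott-Aldrich syndrome protein, which relays signals from the receptor contact to the Arp2/3 complex. It was the only one of the 10 genes without a peak at a log10 p of -100 or less. The most significant, chrX:8086201-8086380, had a fold of 2.83 and a log10 p of -25.8 and covered 96 nt of exon 10, in the coding sequence. The peak over the stop codon, chrX:8081870-8081988, had a fold of 1.23 and a log10 p of -6.11, and its centre lay 5 nt past the stop codon. The third, chrX:8086439-8086499, had a fold of 3.48 and a log10 p of -3.52 and lay in intron 9, where the only annotated transcript was a retained-intron form with no coding sequence.

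Of the 38 DRACH sites of the Was mRNA, 2 lay in a peak, both in the peak over the stop codon. The exon 10 part of the most significant peak is shown because it holds no DRACH site and is made largely of sequence that recurs elsewhere. This part, chrX:8086201-8086296, carries the triplet GGA 17 times in a row, and 51.4% of its stretches of 25 nt occurred in transcripts of other genes, 108 in all. It is printed from the minus strand. The origin of reads over such a repeat is uncertain.
Was, exon 10 part of the most significant peak: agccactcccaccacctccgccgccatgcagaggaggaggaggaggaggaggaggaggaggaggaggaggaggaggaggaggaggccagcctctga

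Arpc2 and Arpc1b encode subunits of the Arp2/3 complex, and Arpc1b is the form of its subunit that predominates in blood cells. Both had their most significant peak over the stop codon. In Arpc2 (ENSMUSG00000006304, on the plus strand of chr1) it spanned chr1:74264414-74268179 with a fold of 1.81 and a log10 p of -104, and it covered 384 of the 414 nt of 3′ UTR. The other, chr1:74236497-74236766, lay on 114 nt of 5′ UTR in exon 1 with a fold of 2.49 and a log10 p of -12.3. In Arpc1b (ENSMUSG00000029622, on the plus strand of chr5) the peak over the stop codon, chr5:145127621-145128343, had a fold of 4.15 and a log10 p of -520. It had the highest fold among the peaks of the 10 genes that covered a stop codon, and held 19 DRACH sites over 614 nt.

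The highest fold enrichment of the group, 20.7 with a log10 p of -110, was also assigned to Arpc1b. This peak, chr5:145129548-145130147, covered the last 152 nt of the longest coding transcript, beginning 1689 nt past the stop codon. It lay wholly within another Arpc1b peak, chr5:145129539-145130585, which had a fold of 1.8 and a log10 p of -6.62, so nested spans at the same place carried very different ratios. All 600 nt of the stronger peak's span also lay in exons of Pdap1, a gene on the opposite strand, as did 837 nt of the wider one. Whether the counting used strand is not given in the sources used here, and reads of the 2 genes cannot be told apart at this place. The peak assigned to Pdap1 itself lay elsewhere, at chr5:145136696-145139998, with a fold of 3.32 and a log10 p of -1.76. The remaining Arpc1b peaks lay on exons 7 and 8 (chr5:145125964-145127113, fold 1.43, log10 p -53.8) and on exons 1 and 2 (chr5:145114245-145121687, fold 1.92, log10 p -30.8).

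Most of the 10 genes carried several peaks. In all, 6 of them had 3 or more, against 16.6% of all genes with a peak, and peaks covered 6251 of the 17046 nt of their longest coding transcripts (36.7%). Of the 29 peaks, 26 could be placed on these transcripts, by the middle of their exonic part. The centre lay in the 3′ UTR for 12 peaks (46.2%, Wilson 95% interval 28.8 to 64.5), against 56.5% of all placed peaks. It lay in the 5′ UTR for 6 (23.1%), against 9.94%, and in the coding sequence for 8 (30.8%). The interval covers counting error only and treats the peaks as independent. Peaks of the same gene, and the nested peaks of Actb and of Arpc1b, were counted separately, so it is no test. Centres within 200 nt of the stop codon made up 30.8% (8 peaks, interval 16.5 to 50), against 22.3%, and 7 peaks (26.9%) covered the stop codon, against 20.3%. The background shares of 56.5% and 22.3% lie within the intervals of the 10 genes. For the 5′ UTR share, 23.1% against 9.94%, no interval was computed.

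When only the most significant placed peak of each gene was taken, it covered the stop codon in 6 of 10 genes, against 27.9% of all genes with a placed peak. These were Actb, Tmsb4x, Tmsb10, Coro1a, Arpc2 and Arpc1b. Their peaks covered 300 to 715 exonic nt, against a median of 203 nt for all placed peaks. Whether this length accounts for the share was not tested, and significance had entered the choice of the genes. The centre of the most significant placed peak was in the 3′ UTR in 6 of 10 genes, against 60.7% of all genes. It was in the coding sequence in Tmsb4x, Coro1a and Was and in the 5′ UTR in Pfn1. The median fold was 2.34 for the 6 peaks with a centre in the 5′ UTR, 1.81 for the 12 in the 3′ UTR and 1.78 for the 8 in the coding sequence. In all placed peaks it was 4.0, 2.02 and 2.53. The ranges of the groups overlapped, at 1.30 to 9.48, 1.15 to 20.7 and 1.18 to 2.83. The authors' labels named 3′ UTR for 14 of the 29 peaks, 5′ UTR for 9 and exon for 6, and of 8 placed peaks labelled 5′ UTR, 6 had their centre there.

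DRACH sites were about as dense in these peaks as in peaks at large. There were 20.8 sites per kb of mRNA within the peaks of the 10 genes and 17.9 per kb in the rest of their mRNAs, and 20.3 per kb in all placed peaks. At least 1 site was held by 24 of the 26 placed peaks (92.3%), against 90.6% of all placed peaks. The density was higher within the peaks than outside in 8 of the 10 genes. The largest gaps were in Cfl1 (33.3 against 18.2 per kb), Tmsb4x (23.2 against 8.65) and Tmsb10 (20.3 against 6.8), and the order was opposite in Was (9.3 against 19.0) and Arpc2 (17.8 against 20.5). Some of these densities rest on few sites: 7 in the Cfl1 peaks, 2 in the Was peaks, and outside the peaks 3 in Tmsb4x and 1 in Tmsb10. For the narrower motif GGAC the order changed, with 5.44 per kb within and 5.65 per kb outside. In RRACH, which leaves out a T at the first place, it was 15.8 and 12.6 per kb.

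**Figure D3:**
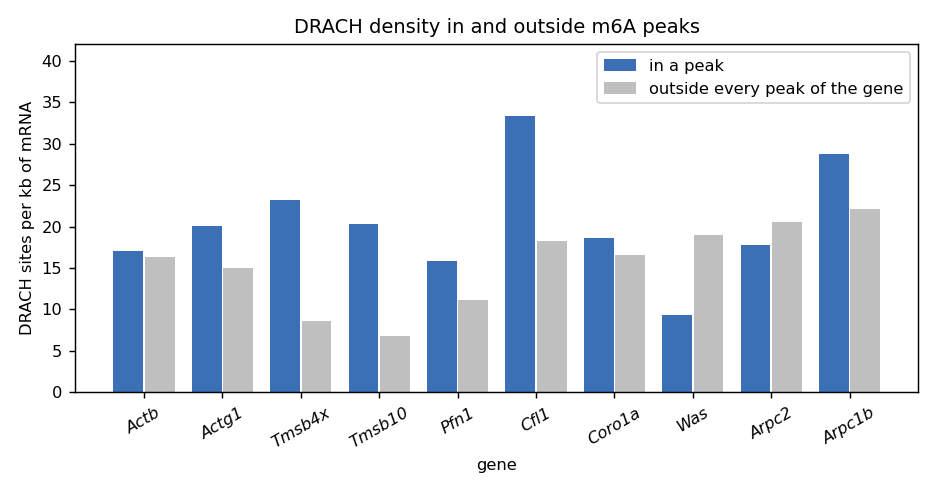
DRACH sites per kb of mRNA within the peaks of each gene (blue) and outside every peak of that gene (grey), on the longest coding transcript. Blue is higher in 8 of 10 genes, with the exceptions Was and Arpc2, and grey is lowest in Tmsb10 at 6.8 per kb.

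The wider actin machinery was described with a list of 108 genes in 8 roles that includes the 10 genes. Of these, 89 (82.4%) had a peak, and 79 of the 98 others did (80.6%), against 46.3% of all annotated protein-coding genes. The list gave no read numbers, so genes without reads could not be left out of that background. The 98 others held 178 peaks with a median fold of 1.67 and a median log10 p of -10.9. A strong peak was found in 20 of those 79 genes (25.3%), against 49.6% of all genes with a peak. Over all 108 genes, 24 had a strong peak (27.0% of those with a peak), and 14 when a log10 p of -3 or less was also required. For this stricter cut the share of all genes was not computed. The 10 genes lay deeper in significance (median log10 p -53.8), which entered their choice, than the rest of the list, at a similar median fold (1.97). Of the 22 genes of the list with a peak at a log10 p of -100 or less, 9 were among the 10. Counted by peak and not by gene, 2.55% of all peaks reached that value.

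By role, the monomers and monomer binders had the lowest share of genes with a peak, 9 of 15, the genes without one being the muscle actins Acta1, Acta2 and Actc1, the thymosins Tmsb15a and Tmsb15b1, and the profilin Pfn2. Beyond the 10 genes, its most significant peaks were in Cap1 (log10 p -25.3, fold 1.74) and Cap2 (-15.4, fold 39.8), which encode cyclase-associated proteins that recycle actin monomers. The highest fold after Cap2 was in Twf1, twinfilin (15.2, log10 p -2.91), on no coding isoform. In the cofilin cycle, 12 of 14 genes had a peak and Cfl2 and Ssh3 had none. Ssh2, a phosphatase that activates cofilin, had the highest fold of the 108 genes, 415 at a log10 p of -226. That Ssh2 peak touched a coding isoform but not the longest coding transcript. Limk2, a kinase that inhibits cofilin, had a single peak with a fold of 65.1 (log10 p -94.6), on no coding isoform, and the coronin Coro1b had one of 2.46 (-106).

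Of the 10 Arp2/3 genes, 9 had a peak and Actr3b had none. Beyond Arpc1b and Arpc2, the most significant peaks were those of Arpc5 (fold 1.8, log10 p -149) and Actr2 (fold 2.63, -81.6). The single Arpc3 peak had a fold of 9.48 at a log10 p of -1.69, the pair of values seen in Actb. The highest fold of Arpc5l was 4.74 (-1.31), and both these peaks lay on no coding isoform. Of the nucleation promoting factors and their regulators, 13 of 16 had a peak, and the relatives of Was without one were Wasl, Wasf1 and Wasf3. Cyfip1, a subunit of the WAVE complex, had a coding sequence peak with a fold of 62.2 and a log10 p of -141. In the 3′ UTR, another WAVE subunit gene, Brk1, had a peak with a fold of 1.77 (-39.2), and Washc1 of the WASH complex had one of 9.80 (-17.5).

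Formins, capping and severing genes had a peak in 10 of 13 cases, led by the capping subunits Capzb (fold 2.98, -312) and Capza1 (fold 3.07, -78.2). A less significant Capza1 peak had the highest fold of the role, 14.2 (-5.77), on no coding isoform, and Svil, supervillin, had one of 5.69 (-1.63). Diaph3, Gsn and Eps8 had none.

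Cross-linkers and membrane linkers had a peak in 15 of 17 cases, with Actn4 and Msn having none. Here Lcp1, the bundling protein L-plastin of blood cells (fold 1.68, log10 p -253), and the cross-linker Flna (fold 3.04, -162) were the most significant. Enah (fold 60.7, -13.5) and Tln2 (fold 9.48, -2.0) had the highest folds. Of the myosin genes, 7 of 8 had a peak and Myh10 had none. The light chain gene Myl6 had a log10 p of -481 at a fold of 2.27 and another peak with a fold of 9.48 (-22.4). The heavy chain gene Myh9 had a fold of 2.55 (-99.8) and Myl12b one of 4.79 (-79.7). A gene without a peak in this list may lack reads or lack enrichment, and the list does not say which.

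**Figure D4:**
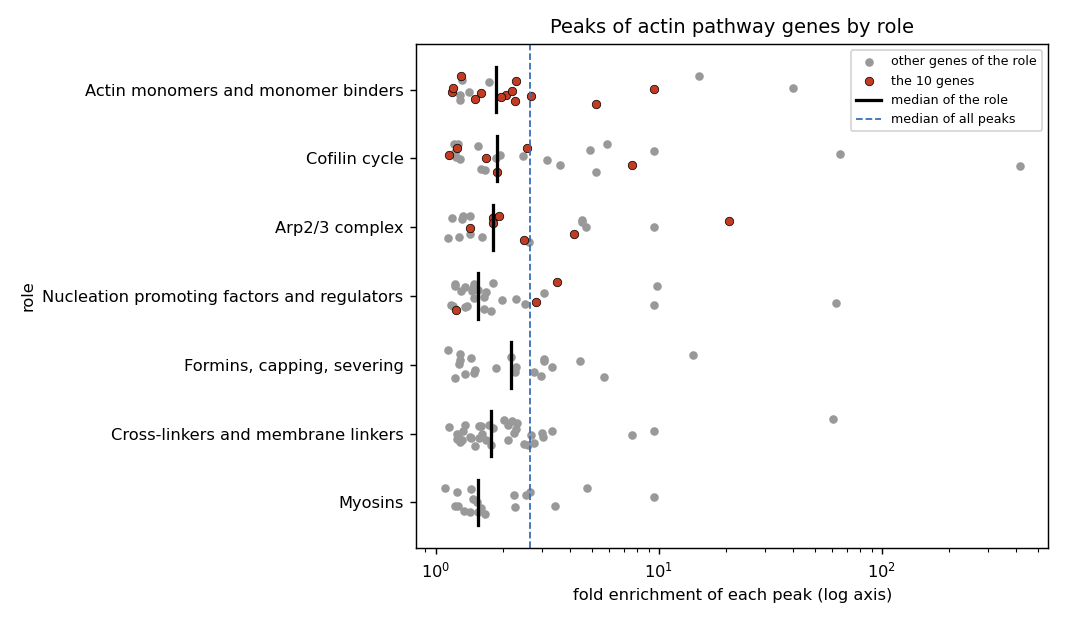
Fold enrichment (log axis) of each of 172 peaks assigned to 93 of the actin pathway genes, in 7 roles, with peaks of the 10 genes in red, other peaks in grey, the median of each role as a black bar and the median of all peaks (2.66) as a dashed line. The median of each role drawn lies left of the dashed line, from 1.55 to 2.17, and the points farthest right are Ssh2 (415) and Limk2 (65.1).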

How the data were processed

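MeRIP-seq was performed by the authors on poly(A) RNA of sorted splenic NK cells, fragmented and bound with an m6A antibody. Per the labels and methods, reads were trimmed, aligned to GRCm38 with HISAT2 (1.0), called with exomePeak and annotated with ChIPseeker (1.0). The deposited fold enrichment is a ratio of immunoprecipitate over input made by the authors. The deposited significance is a score, read here from its column name and its weakest value (-1.3) as a log10 p-value from peak calling, with no adjustment stated. The deposited positions, gene identifiers and region labels were used as other columns. How replicates were combined is not given in the sources used here. No column held values of a sample, so depth and precision are unknown.

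The list held 20751 rows, and 24 exact repeats were dropped. Peaks were placed on the longest coding transcript of GENCODE gene models for GRCm38 by the centre of their exonic part, for 15721 peaks. Of 12351 identifiers, 12332 were annotated. Positions count from 1. Copies were searched with BLAST 2.17.0, and pairs aligned with MAFFT 7.526. Python 3.11.15 was used with pandas 2.3.3. The 10 genes and the lists of pathway genes and markers were chosen with earlier results of these data known. Other pathway genes were named as at most 2 per role by log10 p and 2 by fold, and neighbours as the peaks next in log10 p to the 3 lowest genes. 1 neighbour, 1 role of the pathway and 1 peak sequence are not reported here. Peak sequences of Pfn1 and Was were chosen after their values were seen.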

Additional observations from a re-analysis of the deposited data

How the results depend on the processing

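No paired analysis was possible because the list holds no value per sample, and for the same reason no replicate could be left out. Of 36 alternatives over 13 results, 25 stayed within 1.5 times the value given or, for shares, within its interval, and 11 did not. At a fold of at least 2, 14 of the 29 peaks of the 10 genes were left and 57 of the 89 pathway genes with a peak. With strong set at a fold of 10, 1 of the 10 genes and 12 pathway genes had a strong peak, in place of 4 and 24. With strong peaks also required to have a log10 p of -3 or less, an alternative chosen after seeing the data, there were 2 and 14; the peaks of Actb and Coro1a were lost. The median fold was 2.99 over the strongest peak of each gene, in place of 1.97. The share of centres near the stop codon was 7.69% within 100 nt and 53.8% within 400 nt, in place of 30.8%. GGAC gave 5.44 sites per kb in place of 20.8 for DRACH, being the narrower motif. At 80% identity 4 pairs of a gene and a copy had a peak on the copy, in place of 0. These were Lrrc58, counted once for each actin (log10 p -15.2, fold 8.85), and each actin as the copy of the other.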
